A study of Mus musculus with 22 samples.

Results

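The genes described are those for the protein parts of the cytosolic ribosome in mouse liver. They were taken by symbol, as every Rpl or Rps symbol followed by a number with at most one of the letters a, l, x or y, plus Rplp0, Rplp1, Rplp2 and Rpsa. This gave 81 of the 23227 genes in the mRNA tables, of which 46 belong to the large subunit, 3 to the P stalk of the large subunit and 32 to the small subunit. All animals were wild type C57BL/6J mice. The chow group ate standard chow (Prolab Isopro RMH 3000, Purina), and the other group changed to a high-fat diet (S3282, Bioserve) at the age of 8 weeks and stayed on it for 16 weeks. Livers of both groups were taken at 24 weeks after a night without food, frozen in place with cooled clamps and ground to powder. Of the 22 samples of the series, 12 were used, namely 3 libraries per diet of mRNA and 3 per diet of chromatin immunoprecipitated for histone H3 acetylated at lysine 27 (H3K27ac, a mark of active promoters and enhancers). The labels do not say that libraries of a group came from separate animals, so p-values measure the spread between these libraries, which may in part be technical.

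A ribosome has a small subunit, which reads the mRNA, and a large subunit, which joins amino acids and feeds the new chain into an exit tunnel. Each ribosome carries 1 copy of nearly every ribosomal protein, and cells make these proteins in matching amounts. The P stalk, built of Rplp0 with pairs of Rplp1 and Rplp2, is the exception in copy number and recruits the elongation factors. The mRNAs of ribosomal proteins are known to begin with an oligopyrimidine tract, a run of C and T bases through which the kinase complex mTORC1 controls their translation, and in liver their translation is known to respond to feeding.

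The sequence around the annotated transcription start of several of these genes is shown because this tract is what they are known to share. RefSeq promoter windows (build GRCm38.p6, 300 bases each) were found for 60 of the 81 genes, and the other 21 had none in the table used. Each line gives 30 bases, 5′ to 3′ on the gene's own strand, and capitals mark the run of pyrimidines that starts with a C near the annotated start. Only genes found to hold such a run are shown, so the lines do not compare genes with and without it.
Rps15a, chr7:118116128-118116157, minus strand: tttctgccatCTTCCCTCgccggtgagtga
Rpl12, chr2:32961702-32961731, plus strand: agcaggatccgtCTTTTCggctttcggctc
Rps24, chr14:24490668-24490697, plus strand: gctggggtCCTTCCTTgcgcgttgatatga
Rps26, chr10:128626487-128626516, minus strand: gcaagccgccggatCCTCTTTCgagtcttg
Rps6, chr4:86857348-86857377, minus strand: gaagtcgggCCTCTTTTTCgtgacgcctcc
Rps27, chr3:90213629-90213658, minus strand: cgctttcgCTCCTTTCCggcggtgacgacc
Rpl28, chr7:4792955-4792984, plus strand: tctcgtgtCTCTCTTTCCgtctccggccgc
Rplp2, chr7:141447641-141447670, plus strand: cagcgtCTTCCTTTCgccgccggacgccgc
Rps2, chr17:24720053-24720082, plus strand: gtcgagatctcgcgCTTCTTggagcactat
Rps15a, Rpl12, Rps24 and Rps26 are among the genes whose mRNA was lowest on the high-fat diet relative to chow, whereas the values for Rpl28, Rplp2 and Rps2 did not lie below chow, and Rps27 was hardly counted at all.

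A tract of this kind, defined as a C within 5 bases of the annotated start followed by at least 4 pyrimidines, stood in 28 of the 60 genes (46.7%), against 21.2% of all 27025 genes in the promoter table. Runs farther from the annotated start were not counted, so a gene without a match is not shown to lack the tract. The letters CCGGAAG or their complement CTTCCGG, the core bound by ETS factors, stood in 25 of the 60 (41.7%) against 9.93% of all genes, and in 18 of these wholly before the start. AAGATGG or CCATCTT, letters bound by YY1, stood in 9 of the 60 (15%) against 7.28%. TATAAA or TTTATA, the TATA letters, stood in 6 of the 60 (10%) against 15.7%. The ETS and YY1 letters can share their AAG, and the ETS letters can fall inside a tract. Upstream stretches with the ETS letters in capitals are shown for 4 genes, all ending at or before the annotated start.
Rps6, chr4:86857435-86857475, minus strand: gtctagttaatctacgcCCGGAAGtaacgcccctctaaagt
Rps26, chr10:128626697-128626737, minus strand: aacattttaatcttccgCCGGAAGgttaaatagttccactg
Rpl38, chr11:114668539-114668579, plus strand: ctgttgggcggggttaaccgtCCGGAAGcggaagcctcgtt
Rps7, chr12:28635954-28635994, minus strand: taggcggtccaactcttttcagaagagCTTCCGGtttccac
Among the 22 genes with a window whose mRNA fell in the comparison below, 11 held the tract and 8 the ETS letters. Of the 32 other tested genes with a window, 15 held the tract and 14 the ETS letters, so both sets of letters occurred in either group. A match says that the letters are present, and does not show a bound or used site.

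Levels are given as CPM, counts scaled to a library total of 1000000. Total counts per library ran from 19016275 to 45741794 for mRNA and from 1967613 to 4964403 for H3K27ac at promoters. Libraries within a diet differed by more than counting error, so no library was a copy of another. Summed over 10 hepatocyte markers, mRNA levels of 109491 to 117082 CPM on chow and 103732 to 127548 on the high-fat diet matched the labelled tissue. Exocrine pancreas markers were also present and moved with diet. Their sum over 15 genes was 2175, 944 and 355 CPM in chow libraries 1 to 3 and 23.3, 212 and 10.5 CPM in high-fat libraries 1 to 3, and 12 of the 14 tested were lower on the high-fat diet. Summed mRNA ranges overlapped between diets for markers of macrophages (239 to 448 CPM on chow, 286 to 540 on the high-fat diet), lymphocytes (10.7 to 14.8 and 12.2 to 17.5), endothelial and stellate cells (214 to 279 and 214 to 399) and bile duct cells (34.9 to 45.6 and 37.6 to 60.9). Fitted values were at or above 0 for 9 of 10 macrophage markers (median log2 0.44, 1 rose, Cd68) and for 8 of 10 endothelial and stellate markers (median 0.34, 2 rose, the collagens Col1a1 and Col3a1). The endothelial and stellate sum was 214, 246 and 279 CPM in chow libraries 1 to 3 and 214, 360 and 399 CPM in high-fat libraries 1 to 3, and its part in the results below was not tested. None of these markers was at 0 in all 6 libraries, and 1 pancreas marker was at 0 in every high-fat library. The labels name no batch, and any batch that followed diet cannot be told apart from it.

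Ribosomal protein mRNA was lower in livers on the high-fat diet. Together the 81 genes took 1.33%, 1.31% and 1.33% of all mRNA counts in the chow libraries and 1.22%, 1.18% and 1.07% in the high-fat libraries. The high-fat libraries all lay below the chow libraries, with means of 1.15% ± 0.0765 (SD, n = 3) and 1.32% ± 0.0122 (SD, n = 3), and the exact permutation test gave its smallest possible value, p = 0.1, two-sided. Both subunits took part. The large subunit went from 0.721% to 0.627% of counts and the small subunit from 0.539% to 0.467%, each with no overlap between diets (exact permutation p = 0.1). The 3 P stalk genes took 0.0610% ± 0.00150 (SD, n = 3) on chow and 0.0595% ± 0.00388 (SD, n = 3) on the high-fat diet, ranges that overlapped (exact permutation p = 0.8). In whole tissue, fewer cells of a type and less RNA per cell cannot be told apart.

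**Figure D1:**
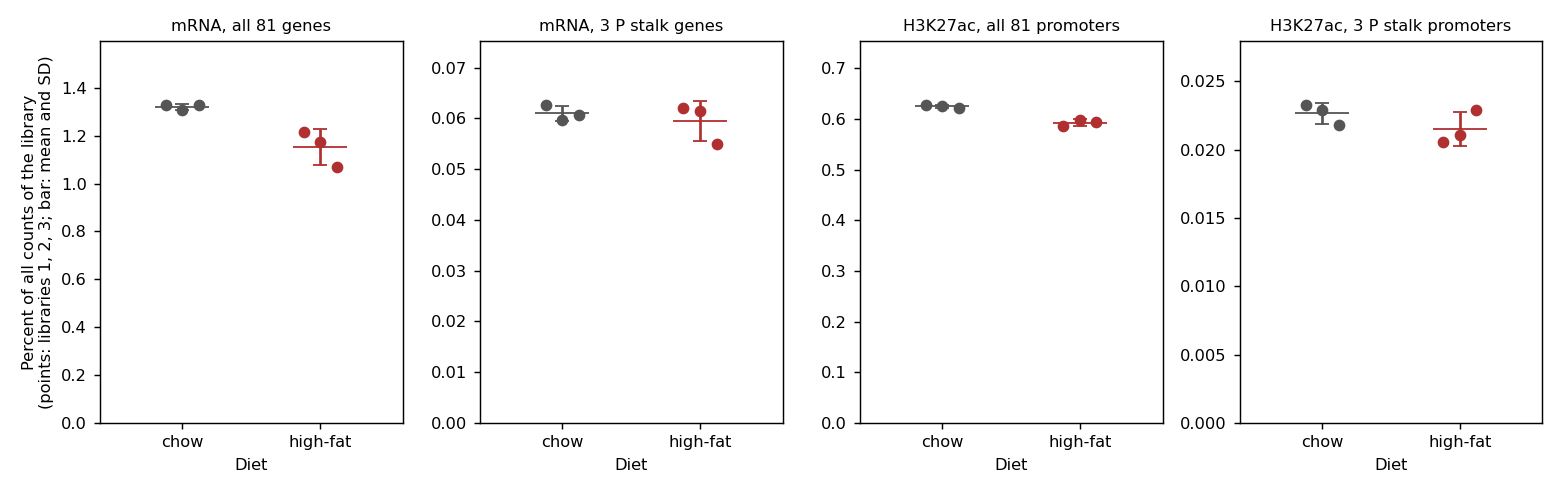
Summed counts as percent of all counts of a library, for mRNA and for H3K27ac at promoters, for all 81 genes and for the 3 P stalk genes; points are libraries 1 to 3 from left to right, bars are the mean and SD, and axes start at 0. For all 81 genes the 3 high-fat libraries lie below the 3 chow libraries in both assays, while the P stalk genes overlap.

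Gene by gene, 74 members had enough counts to be tested, and 31 fell, 0 rose and 43 did not pass an adjusted p of 0.05 (edgeR quasi-likelihood test, Benjamini-Hochberg over all 12909 genes tested). Over all genes, 17.6% were lower and 18% were higher at the same threshold. The fitted log2 fold change lay below 0 for 67 of the 74, against 47.9% of all genes (64 of the 74 when libraries were scaled by total counts), and its median was −0.25, against 0.02 over all genes. Changes were small, from −0.63 to 0.16. Every high-fat library lay below every chow library for 46 of the 74, against 25.5% of all genes, and none of the 74 showed the opposite, against 25.1%. Of the 40 large subunit genes tested 15 fell (median −0.24), of the 31 small subunit genes 16 fell (median −0.29), and of the 3 P stalk genes 0 fell at the adjusted threshold, with 1 at an unadjusted p under 0.05. The number of calls changed with each library left out. It was 18, 14 and 17 without chow library 1, 2 or 3, where 13.7%, 10.7% and 12.4% of all genes were lower. It was 58, 14 and 22 without high-fat library 1, 2 or 3, where 19.7%, 11.3% and 16.4% of all genes were lower. With the mean level of the pancreas markers as a covariate, 0 members passed and the median was −0.28. That covariate itself differed between the diets, and all calls dropped with it, to 427 lower (3.31%) and 400 higher genes. Across chow libraries 1, 2 and 3, pancreas marker sums of 2175, 944 and 355 CPM stood beside ribosomal protein shares of 1.33%, 1.31% and 1.33%. In high-fat libraries 1, 2 and 3, sums of 23.3, 212 and 10.5 CPM stood beside shares of 1.22%, 1.18% and 1.07%. Pancreas marker mRNA differed between the diets, and its part in the lower shares was not tested.

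**Figure D2:**
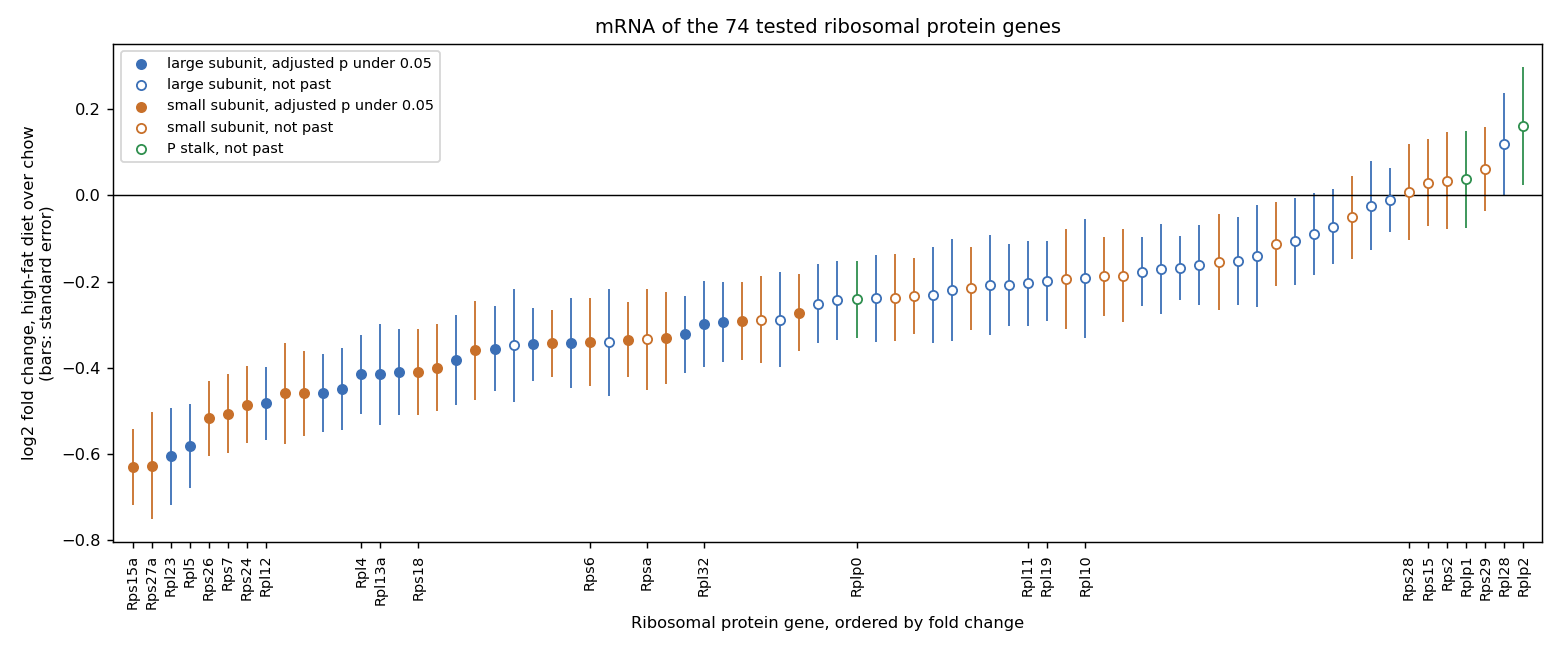
Fitted log2 fold change in mRNA, high-fat diet over chow, for the 74 tested genes in order of size, with the standard error as bars, coloured by subunit and filled where the adjusted p was under 0.05; genes described one by one in the text are named on the axis. The 31 filled points all lie below 0, the lowest at −0.63, and 7 open points lie above 0.

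In the small subunit, Rps15a, a protein of the subunit's body, showed the lowest value. It stood at 78.1, 80.6 and 85.5 CPM in the chow libraries and at 57.8, 51.4 and 48.4 CPM in the high-fat libraries. All 3 high-fat libraries were below all chow libraries, a 1.55-fold lower level (log2 −0.63, SE 0.0883, adjusted p = 0.00125). CPM are not per length of transcript, so they compare libraries for 1 gene and not genes with each other. Rps27a, made as a fusion with ubiquitin, had 203, 207 and 206 CPM on chow and 160, 127 and 112 CPM on the high-fat diet. This was 1.54-fold lower (log2 −0.63, SE 0.124, adjusted p = 0.00585). The chow libraries lay close together here and the high-fat libraries spread widely.

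Rps26, which lies by the path of the mRNA as it leaves the ribosome, had 75.4, 69.6 and 73.9 CPM on chow and 55.0, 51.7 and 46.2 CPM on the high-fat diet (log2 −0.52, adjusted p = 0.0028). Rps7 and Rps24 are needed for processing of ribosomal RNA and are mutated in some families with Diamond-Blackfan anaemia. Rps7 had 197, 192 and 188 CPM on chow and 152, 131 and 123 CPM on the high-fat diet (log2 −0.51, adjusted p = 0.00381). Rps24 had 165, 166 and 172 CPM on chow and 133, 119 and 108 CPM on the high-fat diet (log2 −0.49, adjusted p = 0.00432). For these 3 genes too the diets did not overlap. Rps6, the protein that S6 kinases phosphorylate downstream of mTORC1, fell from 344, 341 and 351 CPM to 314, 257 and 248 CPM (log2 −0.34, SE 0.102, adjusted p = 0.0322), a call lost without any 1 library other than high-fat library 1. Rps18, often used as a reference in quantitative PCR, fell by 0.41 on the log2 scale (adjusted p = 0.0142), a call lost without chow library 2 or high-fat library 2. Rpsa, also known as the laminin receptor precursor, had 357, 370 and 368 CPM on chow and 342, 278 and 249 CPM on the high-fat diet, and did not pass (log2 −0.33, adjusted p = 0.0551) although its diets did not overlap. It passed with RLE size factors, with DESeq2 and without high-fat library 1.

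In the large subunit, Rpl23 and Rpl5 had the lowest values. Rpl23 stood at 227, 232 and 248 CPM on chow and 179, 152 and 133 CPM on the high-fat diet, 1.52-fold lower (log2 −0.61, SE 0.112, adjusted p = 0.00434). Rpl5, which with Rpl11 and the 5S ribosomal RNA forms a particle that can also bind the p53 regulator MDM2, stood at 301, 309 and 318 CPM on chow and 234, 198 and 188 CPM on the high-fat diet. It was 1.50-fold lower (log2 −0.58, SE 0.0969, adjusted p = 0.00273). Its partner Rpl11 had 215, 214 and 207 CPM on chow and 211, 176 and 166 CPM on the high-fat diet, with overlap, and did not pass (log2 −0.20, adjusted p = 0.141). The ratio of Rpl5 to Rpl11 counts was 1.40, 1.44 and 1.54 on chow and 1.11, 1.12 and 1.13 on the high-fat diet. The 2 partners thus shifted by unequal amounts, and no high-fat ratio reached a chow ratio. This ratio and the ratios of 1 gene to another below were formed after the values were seen and are given without a test.

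Rpl12, at the base of the stalk, had 133, 128 and 130 CPM on chow and 102, 93.0 and 84.6 CPM on the high-fat diet (log2 −0.48, SE 0.0850, adjusted p = 0.00351). Rpl4, whose long arm lines the exit tunnel, had 544, 531 and 536 CPM on chow and 443, 394 and 372 CPM on the high-fat diet (log2 −0.42, adjusted p = 0.00937). Both fell with no overlap. Rpl10, a protein added late in the making of the large subunit, behaved differently. It had 442, 456 and 452 CPM on chow, and 485, 366 and 330 CPM on the high-fat diet. High-fat library 1 was above every chow library and the other 2 were below, and the gene did not pass (log2 −0.19, SE 0.137, adjusted p = 0.304). Rpl13a and Rpl32 fell by 0.41 and 0.30 on the log2 scale (adjusted p = 0.0255 and 0.048), and Rpl19 did not pass (log2 −0.20, adjusted p = 0.128). The Rpl13a call was lost without any 1 chow library or high-fat library 2. The Rpl32 call was lost with total counts, with no filter on low counts and without any 1 library other than high-fat library 1. Rpl10, Rpl11 and Rpl19 passed as lower without high-fat library 1. Of the genes that fell and are not named here, values ran from −0.46 (Rps23) to −0.27 (Rps20).

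In the P stalk, the scaffold Rplp0 had a value below 0 and its partners did not. Rplp0 had 366, 351 and 366 CPM on chow and 331, 311 and 275 CPM on the high-fat diet, with no overlap (log2 −0.24, SE 0.0896, adjusted p = 0.0668), and passed as lower with DESeq2 and without high-fat library 1. Rplp1 had 239, 224 and 215 CPM on chow and 272, 217 and 207 CPM on the high-fat diet (log2 0.04, adjusted p = 0.819). Rplp2 had 42.6, 38.1 and 38.4 CPM on chow and 49.6, 49.1 and 34.8 CPM on the high-fat diet (log2 0.16, SE 0.138, adjusted p = 0.39). Rplp2 was high in 2 high-fat libraries and lowest of all in high-fat library 3. Without that library it passed as higher (log2 0.31, adjusted p = 0.028), the 1 member to do so in any fit made. Within each library, Rplp2 counts relative to Rplp0 were 0.117, 0.109 and 0.105 on chow and 0.150, 0.158 and 0.126 on the high-fat diet. Rplp1 relative to Rplp0 gave 0.654, 0.637 and 0.588 on chow and 0.823, 0.697 and 0.754 on the high-fat diet. Both ratios were higher in every high-fat library than in any chow library, and they do not depend on how libraries are scaled. The P stalk genes made up 4.62% ± 0.0907 (SD, n = 3) of all ribosomal protein counts on chow and 5.16% ± 0.0583 (SD, n = 3) on the high-fat diet, again without overlap. The large subunit made up 54.6% and 54.3% of these counts and the small subunit 40.8% and 40.5%, both with overlap. These shares of the members' own counts were formed after the values were seen and are given without a test.

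The fitted value was at or above 0 for 7 of the 74 genes, picked out after their values were seen, and none passed. They were Rps28 (log2 0.01), Rps15 (0.03), Rps2 (0.03), Rplp1 (0.04), Rps29 (0.06), Rpl28 (0.12) and Rplp2 (0.16). Rps2, which lies where mRNA enters the small subunit, had 545, 502 and 498 CPM on chow and 600, 524 and 459 CPM on the high-fat diet. Rpl28 had 136, 122 and 123 CPM on chow and 163, 133 and 119 CPM on the high-fat diet. In both genes the highest and the lowest of the 6 values came from the high-fat diet. The ratio of Rps15a to Rps2 counts, 0.143, 0.160 and 0.172 on chow and 0.0965, 0.0981 and 0.106 on the high-fat diet, shows how far 2 small subunit mRNAs moved apart. The signs of these values near 0 turned with the scaling for Rps28 (RLE size factors) and with the libraries used for all of them but Rplp2.

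The high-fat libraries did not share 1 level. Relative to the chow mean of each gene, the median over the 74 genes was 0.01, −0.01 and 0.01 (log2) in the chow libraries and −0.10, −0.29 and −0.43 in high-fat libraries 1, 2 and 3, while the median over all genes tested stayed within 0.02 of 0. High-fat library 3 had the lowest of the 6 values for 73 of the 74 genes. High-fat library 1 had the highest of the 3 high-fat values for all 74, and the highest of all 6 libraries for 16. With libraries scaled by total counts alone, these numbers became 66 and 52 of 74, and every high-fat library lay below every chow library for 48 of the 74, against 20.1% of all genes. The order of the high-fat libraries was thus the same for nearly all members under TMM scaling, and for fewer under total counts.

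**Figure D3:**
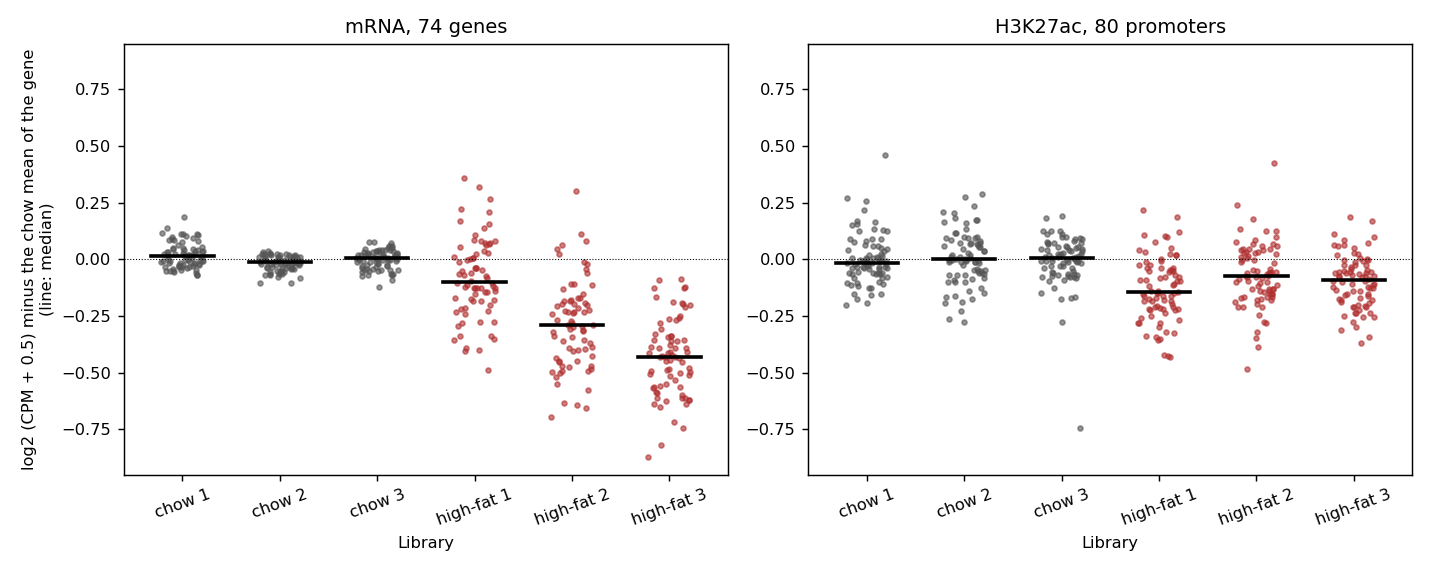
Log2 (CPM + 0.5) of each gene minus its chow mean, by library, for mRNA (74 genes) and H3K27ac at promoters (80 genes); each point is a gene and the line is the median. In mRNA the chow medians lie at 0.01, −0.01 and 0.01 and the high-fat medians at −0.10, −0.29 and −0.43, while the acetylation medians of the high-fat libraries lie between −0.15 and −0.07.

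Of the 81 genes, 7 had too few mRNA counts to be tested. Rpl10l and Rpl39l, paralogs known from testis, had 0 and 1 counts over all 6 libraries, and Rpl3l, a paralog known from muscle, had 37. The other 4 are parts of every ribosome: Rpl26 had 0 counts in all 6 libraries, Rpl30 had 7, Rps27 had 57 and Rpl34 had 70. Their promoters carried H3K27ac all the same, with 64.2 CPM on chow and 62.6 on the high-fat diet for Rpl26, 62.8 and 61.2 for Rpl30, 73.7 and 71.8 for Rps27, and 76.9 and 65.1 for Rpl34. The promoters of the 74 genes tested in mRNA ran from 25.4 to 130.2 CPM with a median of 77.1, and the median of all promoters tested was 41.0 CPM. Promoters of the paralogs Rpl10l, Rpl39l and Rpl3l had 1.54, 3.69 and 25.4 CPM on chow. The mark at the 4 core genes thus lay within the range of the tested genes, and the cause of their low mRNA counts was not tested. Ribosomal protein genes have many near-identical processed copies in the genome, and how reads that match several places were counted is not given in the sources used here. Counts of all members are uncertain to that extent.

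H3K27ac at the promoters of these genes was slightly lower on the high-fat diet, but no single promoter passed. Together the 81 promoters took 0.628%, 0.626% and 0.621% of promoter counts in the chow libraries and 0.586%, 0.598% and 0.594% in the high-fat libraries. The diets did not overlap, with means of 0.625% ± 0.00326 (SD, n = 3) and 0.593% ± 0.00655 (SD, n = 3) and an exact permutation p of 0.1. Of 80 promoters tested, 0 were lower and 0 were higher at an adjusted p of 0.05 in edgeR, where 0.0479% and 0.187% of all 20891 promoters were, and DESeq2 also called 0. At an unadjusted p under 0.05, 7 were lower and 0 higher, where 1195 and 1729 of all 20891 promoters were. The fitted value lay below 0 for 69 of 80, against 50.6% of all promoters, with a median log2 of −0.09 against −0.003. All high-fat libraries were below all chow libraries at 17 promoters, against 9.73% of all, and the opposite held at 0, against 9.77%. Macrophage marker promoters summed to 136 to 160 CPM on chow and 169 to 261 CPM on the high-fat diet, with 1 of 9 tested past the threshold. Lymphocyte marker promoters summed to 146 to 164 and 182 to 278 CPM, with 0 of 10 past it. Hepatocyte marker promoters summed to 567 to 589 and 392 to 570 CPM, with 9 of 10 fitted values below 0, a median log2 of −0.20 and 0 past the threshold. Exocrine pancreas marker promoters summed to 220 to 245 and 230 to 267 CPM, with overlap. Of the 12 tested, 8 fitted values were at or above 0 (median log2 0.12) and 0 were past the threshold. The part of any of these in the lower ribosomal share was not tested.

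Rps7 had the lowest promoter value, 109, 88.1 and 102 CPM on chow and 79.6, 82.1 and 77.0 CPM on the high-fat diet (log2 −0.34, SE 0.0943, adjusted p = 0.101). The Rps7 mRNA also fell. For Rps15a, whose mRNA value was lowest, the promoter had 69.7, 82.1 and 81.3 CPM on chow and 72.7, 66.9 and 68.3 CPM on the high-fat diet, with overlap (log2 −0.17, adjusted p = 0.439). Rps26, whose mRNA fell, had its promoter at 57.3, 67.5 and 62.4 CPM on chow and 61.2, 62.4 and 62.2 CPM on the high-fat diet (log2 0.005, adjusted p = 0.989). The P stalk promoters all had values just below 0, −0.11 for Rplp0, −0.09 for Rplp1 and −0.08 for Rplp2, which lay closer together than the 3 mRNA values.

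Across the 74 genes the mRNA and promoter fold changes were weakly related (Pearson r = 0.24, Spearman rho = 0.23), a description across genes that share libraries within each assay. The promoter median was −0.14 for the 31 genes whose mRNA fell and −0.08 for the 43 others. Both values were below 0 for 58 of 74, against 34.7% of the 12791 genes tested in both assays. In 13 of the 74 all high-fat libraries lay below all chow libraries in both assays, against 5.44% of those genes, among them Rpl4, Rpl13a, Rpl23, Rps7, Rps18 and Rps24. Taken alone, mRNA values lay below 0 for 67 of the 74. Promoter values did so for 29 of the 31 genes whose mRNA fell and for 36 of the 43 others. Each assay alone was thus mostly below 0, and the joint counts are no separate sign of a relation between them. The 2 assays used separate libraries, and the SD of the fold changes was 0.0995 over 80 promoters and 0.175 over 74 mRNAs.

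**Figure D4:**
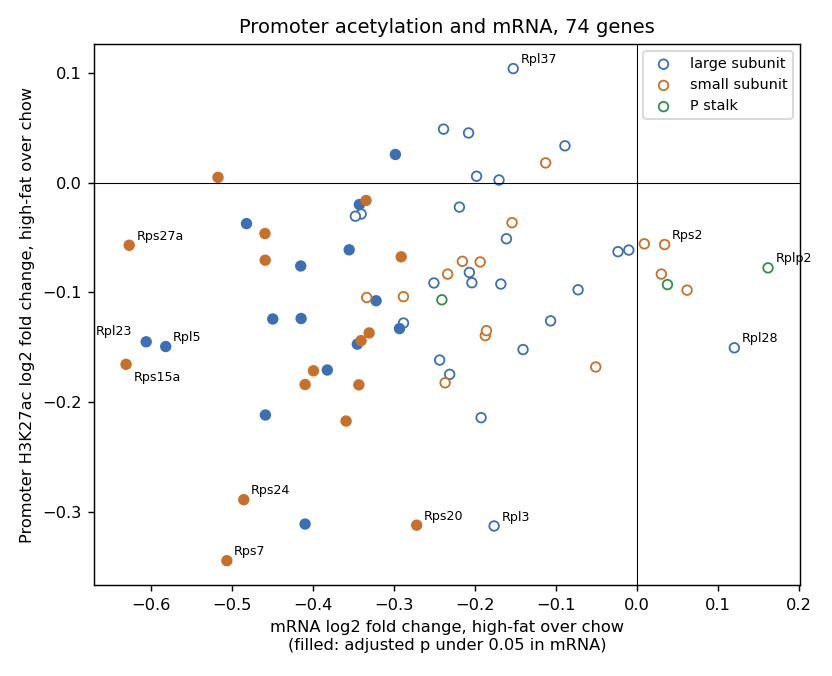
Log2 fold change of promoter H3K27ac against that of mRNA, high-fat diet over chow, for 74 genes; filled points had an adjusted p under 0.05 in mRNA and colours give the subunit. Most points (58 of 74) lie in the lower left corner, and the relation between the axes is weak (Pearson r = 0.24).

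Other genes of the translation machinery were read off the same mRNA fit, beside the background of 17.6% lower and 18% higher. Of 68 tested genes for ribosome biogenesis and RNA polymerase I, 27 fell and 3 rose, with a median log2 of −0.26. Among them were Myc, a transcription factor that drives ribosome production (log2 −1.10, adjusted p = 0.026, a call lost without any 1 chow library or high-fat library 2), Nop58, a core protein of the particles that methylate ribosomal RNA (−1.04, adjusted p = 0.000324), and Tsr1, a small subunit assembly factor (−0.88, adjusted p = 0.00194). Of 30 translation initiation factors 11 fell and 0 rose (median −0.14), with Eif5, Eif2s2 and Eif2b3, all acting on or with the initiator factor eIF2, at −0.74, −0.60 and −0.59. Of 17 elongation factors and other mRNAs known to start with an oligopyrimidine tract, 6 fell and 1 rose (median −0.16), with Nap1l1 at −0.66, Eif3e at −0.56 and Npm1 at −0.42. Of 76 proteins of the separate mitochondrial ribosome, 10 fell and 5 rose, with a median of −0.01. This balance turned to 7 lower and 14 higher with total counts and to 6 lower and 10 higher without high-fat library 3, and it was 18 lower and 3 higher without high-fat library 1. Mrpl47 and Mrpl15 fell (−0.67 and −0.55) and Mrps25 rose (0.60).

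Genes of mTORC1 and its ribosomal arm went both ways, with 8 higher and 7 lower of 31 and a median of 0.02. Eef2k, the kinase that inhibits elongation factor eEF2, rose from 4.07 ± 0.386 to 10.3 ± 1.06 CPM (SD, n = 3; log2 1.33, adjusted p = 0.000353 in edgeR). Rps6kb1, one of the S6 kinases that phosphorylate Rps6, fell from 50.0 ± 2.10 to 31.2 ± 1.43 CPM (SD, n = 3; log2 −0.68, adjusted p = 0.000522 in edgeR). Ddit4, an inhibitor of mTORC1, fell as well (log2 −1.17, adjusted p = 0.0043). Near relatives outside the symbol rule gave 3 lower and 0 higher of 6. Rpl22l1, the paralog of Rpl22, fell from 19.2 ± 0.767 to 7.31 ± 1.25 CPM (SD, n = 3; log2 −1.39, adjusted p = 0.000235 in edgeR), below the lowest member at −0.63, while Rpl22 itself did not pass (log2 −0.17, adjusted p = 0.112). Gnb2l1, the small subunit scaffold also called Rack1, and Rpl7l1 fell by 0.31 and 0.27 on the log2 scale. The Gnb2l1 call was lost without any 1 library other than high-fat library 1. The Rpl7l1 call was lost with total counts, with no filter on low counts, and without chow library 2 or 3 or high-fat library 2 or 3. The fusion gene Fau did not pass (log2 −0.17). At promoters, initiation factors and mitochondrial ribosomal proteins had medians of −0.11 and −0.07, near the −0.09 of the ribosomal protein genes.

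**Figure D5:**
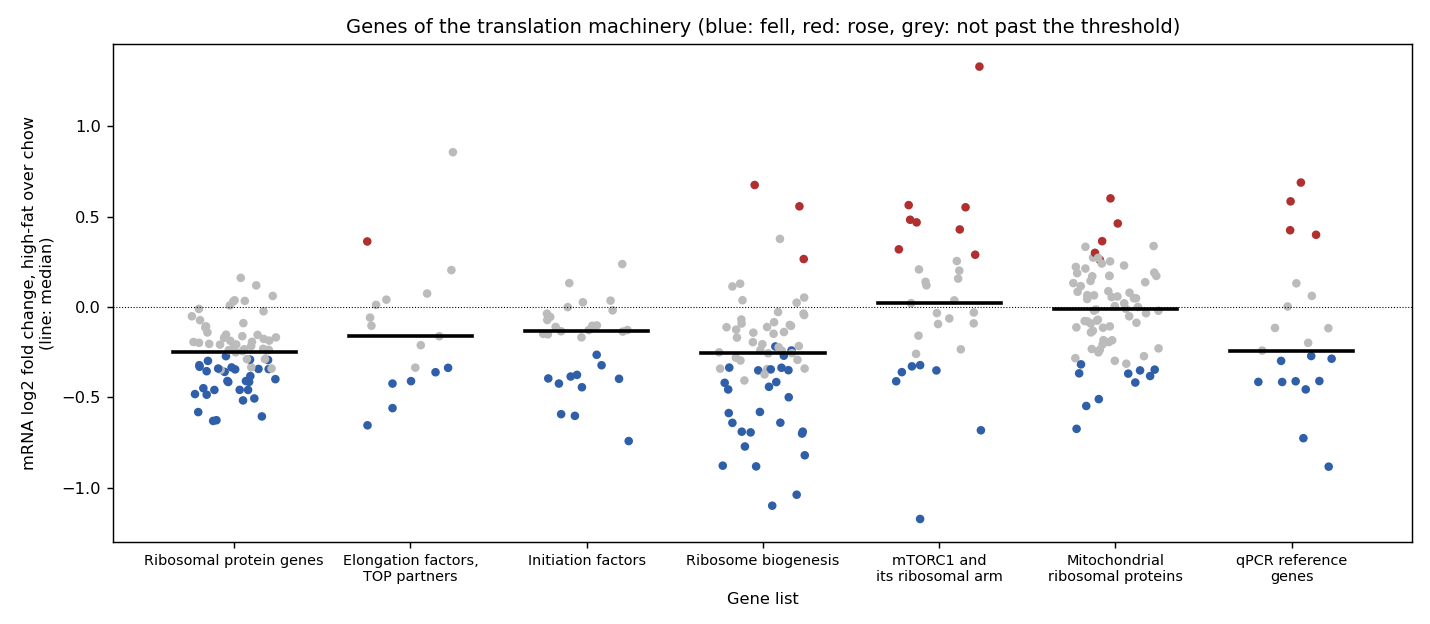
Log2 fold change in mRNA, high-fat diet over chow, for the tested genes of each list, with the list median as a line; blue points fell, red points rose and grey points did not pass. Ribosomal protein and ribosome biogenesis genes have medians of −0.25 and −0.26, while mTORC1 and mitochondrial ribosomal protein genes centre near 0 (0.02 and −0.01).

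Several ribosomal protein genes are used as references in quantitative PCR. Among 21 common reference genes, 7 of them ribosomal, 10 fell and 4 rose. Of the ribosomal ones, Rpl4, Rpl13a, Rps18 and Rpl32 fell, and Rplp0, Rpl19 and Rps29 did not pass, a split that moved for Rpl13a, Rps18, Rpl32, Rplp0 and Rpl19 under the settings named above. Rps29 had 89.2, 94.3 and 97.3 CPM on chow and 108, 99.1 and 85.7 CPM on the high-fat diet, with overlap (log2 0.06, adjusted p = 0.648). Among the others, Hprt and Tfrc fell by 0.88 and 0.73 on the log2 scale and Actb rose by 0.69. Gapdh (log2 −0.12) and Sdha (0.13) did not pass.

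In the authors' deposited table for mRNA, 53 of the ribosomal protein genes were lower and 0 higher at an adjusted p under 0.05, out of 79 with such a value. Over all 17886 genes with such a value in the authors' deposited table, 12.9% were lower and 13.9% higher. Of the 31 genes that fell in the edgeR fit, 29 were also called in the authors' deposited table, which called a further 24. The lowest adjusted p in the authors' deposited table was 6.1e-25, for Rps7. All 7 genes at or above 0 in the edgeR fit had values below 0 in the authors' deposited table, and 2 of them, Rps2 and Rplp1, were called lower there. The size of the difference varied from gene to gene and went both ways. Rpl5 stood at −0.38 and Rpl10a at −0.61 in the authors' deposited table, against −0.58 and −0.45 in the edgeR fit. How the authors' deposited table was scaled is not given in the sources used here, and the cause of these differences was not tested. For promoters the authors' deposited table called 0 of these genes in either direction (0.0487% of all promoters lower and 0.164% higher), with a lowest adjusted p of 0.204.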

How the data were processed

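Per the submitters' processing notes, the tools for mRNA were DESeq2 1.0.18, TopHat 1.4.0, bedtools and HTSeq, those for ChIP were MACS 1.4.0rc2, DESeq2, Bowtie 0.12.7 and bedtools, and the build was mm9. Which tool made which file, the counting of reads with several matches and the width of a promoter are not given in the sources used here. The authors deposited raw counts per gene symbol and per gene promoter, which were analysed as deposited. The authors' deposited tables of differential results give log2 fold changes and adjusted p-values, quoted only where named.

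Each count table was fitted with edgeR 4.0.16 (R 4.3.3): filterByExpr by diet, TMM scaling, quasi-likelihood F test with diet as the only term, Benjamini-Hochberg over all features tested, threshold 0.05, 3 against 3 libraries. Rose and fell are used of genes past it. The standard error (SE) of a fold change was derived from the test, as the absolute log2 fold change divided by the square root of the F statistic. The scripts were tested on simulated data. CPM are counts scaled to a TMM-scaled library total of 1000000, and shares use total counts. Single values were compared by exact two-sided permutation of libraries, which cannot go below p = 0.1. Reads carry no molecular identifiers. Peak lists, H3K4me1 and H3K4me3 were not used here, since they carry mm9 coordinates without gene names and no mm9 annotation was used.

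Members and companion lists were chosen with earlier results of these data known. Named with values are the 8 largest changes past the threshold, the 5 members with the highest counts, members not tested, the P stalk, Rpsa, Rps6, Rpl5, Rpl11, the reference genes, and up to 3 genes per companion list. Alternatives were another scaling (RLE size factors or total counts), DESeq2 1.42.0, no filter on low counts, a replicate block, TMM without the members, a pancreas marker covariate, other denominators of the share, and each library left out.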

Additional observations from a re-analysis of the deposited data

How the results depend on the processing

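The number of ribosomal protein mRNAs called lower was 31, where 17.6% of all genes were lower. It was 33 with RLE size factors (18.2% of all genes), 27 with total counts (12.8%) and 38 with DESeq2 (16.9%). It was 29 without a filter on low counts (12.3%) and 31 with TMM factors computed without these genes (17.8%). It was 0 with the pancreas marker covariate (3.31%). With 1 library left out it ran from 14 to 58, where 10.7% to 19.7% of all genes were lower. The number called higher was 0 in these fits and 0 to 1 with 1 library left out. The median log2 fold change stayed below 0 in all of them, from −0.37 to −0.17 with 1 library left out. Total counts moved the median of all genes to 0.10 and that of the members to −0.17, with 64 of 74 members still below 0. The mRNA share difference of −0.168 percentage points ran from −0.199 to −0.125 with 1 library left out, and the promoter difference of −0.0321 points became −0.0441 with TMM-scaled totals and ran from −0.0349 to −0.0285.

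Equal replicate numbers are not said to mark paired samples. Deviations of same-numbered mRNA libraries correlated at 0.08, −0.06 and 0.15, and those of promoter libraries at 0.09, −0.005 and 0.04. The highest correlations with a high-fat library of another number were 0.07, 0.05 and −0.03 for mRNA and −0.008, 0.02 and 0.12 for promoters. All were small, and with so few libraries they do not settle whether numbers pair samples. With the replicate block 31 mRNAs were lower (16.9% of all genes), 29 of them among those called without it. In the blocked promoter fit 1 promoter, Rps7, passed as lower (log2 −0.33, adjusted p = 0.0417 in edgeR), where 155 of all 20891 promoters were lower. Over all alternatives, biogenesis genes called lower ranged from 4 to 30, initiation factors from 1 to 12, elongation and tract genes from 1 to 8, and the near relatives from 1 to 3. Mitochondrial ribosomal proteins ranged from 0 to 18 lower and 0 to 14 higher, mTORC1 genes from 1 to 7 lower and 1 to 9 higher, and reference genes from 1 to 12 lower and 0 to 4 higher. Over all genes, the share called lower in these mRNA fits ranged from 3.31% with the pancreas covariate to 19.7% without high-fat library 1. Of 12909 genes, 400 were higher with the pancreas covariate and 2805 with total counts. Rpl7l1 also lost its call with the replicate block. With the pancreas covariate, Rpl22l1, Eif3e, Eif5, Nop58, Eef2k, Rps6kb1 and Hprt passed, and the other companion genes named above as changed did not.

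Signs turned for values near 0. Rps28 was at −0.00138 with RLE, −0.00135 with DESeq2, −0.000815 with the replicate block, and −0.0206, −0.0637 and −0.0472 without chow 3, high-fat 1 or high-fat 2. Rplp1 was at −0.0184 with the pancreas covariate and −0.0137 and −0.0944 without chow 3 or high-fat 1. Rps15 was at −0.00792, −0.0238 and −0.0463 without chow 2, chow 3 or high-fat 1, and Rps2 at −0.00764 and −0.0708 without chow 3 or high-fat 1. Without high-fat 1, Rps29 was at −0.0198 and Rpl28 at −0.0166. Without high-fat 3, Rps28, Rplp1, Rps2 and Rpl28 were at 0.127, 0.112, 0.125 and 0.217. The P stalk share difference ran from −0.00276 points without high-fat 1 to 0.000749 without high-fat 3. The cause of these turns was not tested. Each symbol had 1 promoter row, so summing rows per symbol could not be tried. With 3 libraries a group, a gene that did not pass is not shown to be unchanged.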
